A study of Mus musculus with 6 samples.

Results

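The lysosome is the acidic compartment in which cells break down glycolipids, glycogen, glycosaminoglycans, lipids and proteins. Its soluble hydrolases are tagged with mannose 6-phosphate in the Golgi and carried to the lysosome by a pair of mannose 6-phosphate receptors, while its membrane is lined by heavily glycosylated proteins such as LAMP1 and LAMP2. Many of its genes share a promoter element bound by TFEB, a transcription factor that raises lysosomal gene expression under starvation or lysosomal stress. In macrophages and other antigen-presenting cells, IFN-gamma is known to alter the degradative compartment. The genes described here are 32 lysosomal enzymes, membrane proteins, sorting receptors and the factor Tfeb, taken from the 23282 gene rows of a count table by their gene symbol, and each stood on 1 row.

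The cells were TC-1, a mouse line that the labels call a lung adenocarcinoma line and that was made from lung cells transformed with papillomavirus oncogenes and activated ras. They were either given 20 ng/ml recombinant murine IFN-gamma for 72 h (3 libraries) or left untreated (3 libraries), in the same serum-containing medium. No transgene or deletion is named, and the labels leave unsaid whether the 3 libraries of a group were grown apart. The p-values below thus describe the scatter among these libraries, part or all of which may be technical. Libraries held 8511379 to 10861336 gene counts in the IFN-gamma group and 7302687 to 9350991 in the untreated group. The treatment was visible in the interferon-induced factor Irf1, with 886 ± 21.9 CPM in IFN-gamma libraries and 73.9 ± 8.10 CPM in untreated ones (CPM scales a gene's counts to the total gene counts of its library, SD, n = 3). Of 13 epithelial and lung markers 9 stayed under 2 CPM in every library, among them Epcam, Cdh1 and Nkx2-1, and Krt19 reached up to 17.0 CPM. Of 14 macrophage markers, 11 stayed under 1 CPM in every library, and the exceptions were Cd68, Cd14 and Mpeg1. None of 8 mesenchymal markers stayed under 2 CPM throughout, and their sum was 6981 to 7365 CPM in IFN-gamma and 9686 to 10241 CPM in untreated libraries.

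In IFN-gamma cells, 5 lysosomal genes rose and 2 fell, all by less than 2-fold. The progranulin gene Grn, the alpha-galactosidase gene Gla, the membrane protein genes Lamp2 and Scarb2 and the receptor gene M6pr were higher, and the receptor gene Igf2r and the sulfatase gene Ids were lower. The remaining 24 of 31 tested members did not pass, and 1 member, Manba, had too few counts to be tested. Across all genes tested, 9.88% were called higher, 7.56% lower and 17.4% in either direction, so the 7 of 31 members called lay near the background. The median log2 fold change of the members was -0.02, against -0.01 for all 12191 genes tested. Changes are log2 fold changes of IFN-gamma over untreated ± standard error from edgeR's quasi-likelihood test, with p-values adjusted over all genes by Benjamini and Hochberg and a threshold of 0.05. Because this is bulk RNA, fewer cells expressing a gene and less RNA per cell cannot be told apart.

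**Figure D1:**
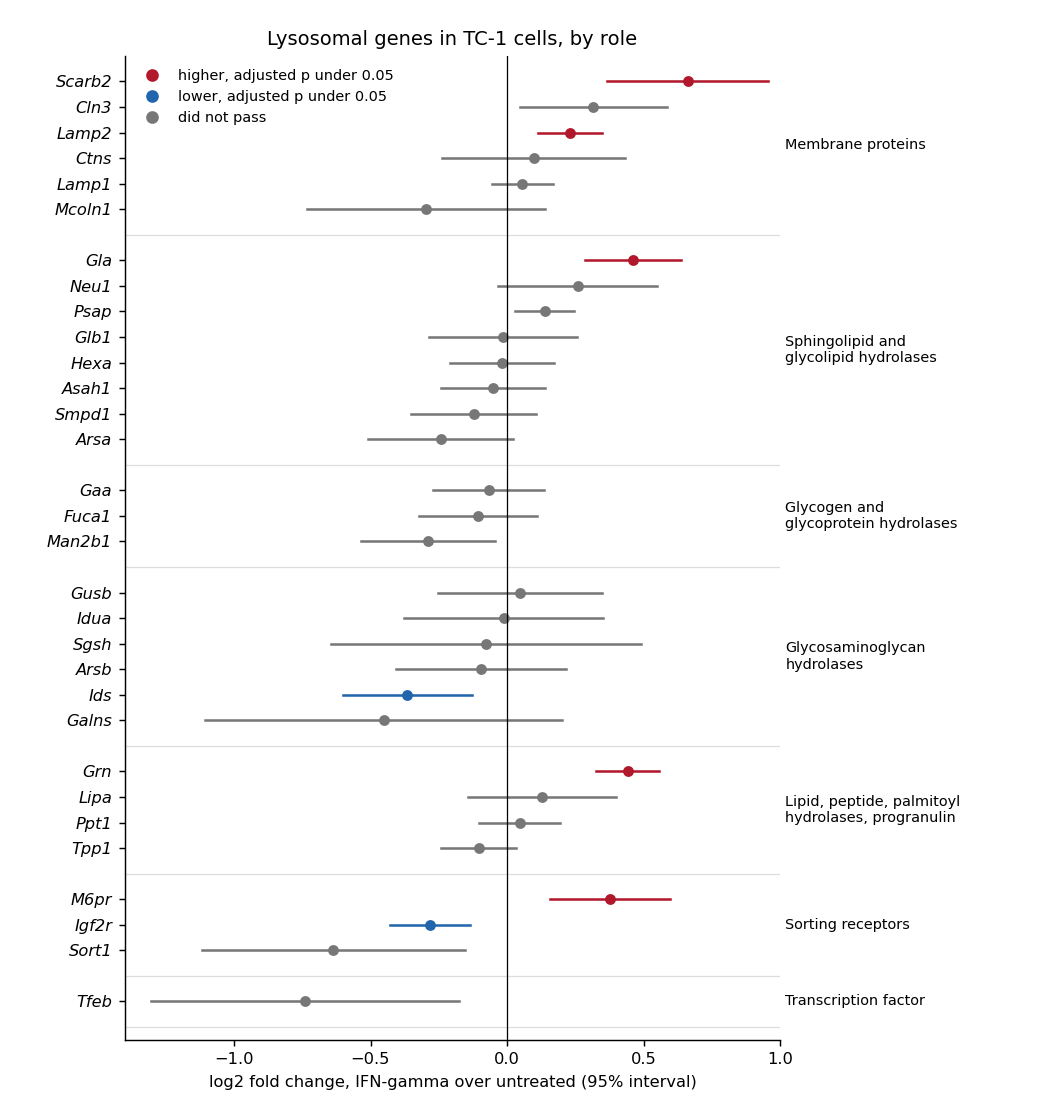
Log2 fold change (IFN-gamma over untreated, points) with 95% interval (lines) of the 31 tested members, grouped by role, with red for members called higher, blue for those called lower and grey for those that did not pass. Most points lie within 0.5 of 0, and the lowest point is Tfeb at -0.74.

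The number called lower depended on how the libraries were scaled. Upper-quartile factors gave 5 members higher and 5 lower, and scaling by total counts 5 and 4. Among all genes, upper-quartile factors called 957 higher and 1343 lower and total counts 991 and 1238, against 1204 and 922 with the TMM factors used here. Leaving out 1 library at a time gave between 4 and 6 members higher and between 1 and 4 lower. Only 1 was lower without IFN-gamma replicate 1, untreated replicate 1 or untreated replicate 3, and 4 were lower without IFN-gamma replicate 3. The number of all genes called moved in the same direction. Without those libraries 686, 709, 654 and 1014 of all genes were called lower, in that order, against 922 in the main fit. CPM values of the groups did not overlap for 6 tested members on the higher side and 8 on the lower side, where 12.9% and 19% of all tested genes were so placed. Summed over the 32 members, expression was 3396 ± 53.9 CPM in IFN-gamma libraries and 3237 ± 75.2 CPM in untreated ones (SD, n = 3), or 0.335% to 0.346% and 0.317% to 0.332% of all gene counts. Those totals include the ribosomal RNA row Rn45s, so its share enters these sums. It took 6.18%, 7.46% and 6.64% of counts in IFN-gamma libraries and 9.69%, 7.98% and 5.81% in untreated ones. The fit without this row again called 5 members higher and 2 lower.

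The sequence shared by lysosomal promoters was looked for first, because it is the feature through which TFEB is known to bind them. RefSeq promoter windows (GRCm38.p6, from 250 bases before to 50 after a gene's start) were found for 28 of the 32 members. The E-box with a flanking T, TCACGTG, was searched on both strands, and matches that overlapped on opposite strands were counted as 1 site. It stood in a window of 9 members (32.1%), against 4.29% of all 27025 genes with a window. The shorter E-box CACGTG, which lies inside it, picked out the same 9 members, against 8.09% of all genes. This sequence was already known to be shared by lysosomal promoters, so these shares describe the members and test nothing. The site closest to the gene start is shown for each of the 9, in capitals where it matched on either strand:

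Lamp1: accacaTCACGTGcggaacg
Mcoln1: ccccgcTCACGTGAccgcgg
Cln3: gtactgTCACGTGAccccca
Gla: tctcggTCACGTGAgcaact
Glb1: tctgagTCACGTGgcctaca
Arsa: tcagtgTCACGTGttgtctg
Gaa: gtgcgaTCACGTGtttgact
Sgsh: tgccgtgCACGTGAccgtgg
Igf2r: ctcaggTCACGTGAcgctcc

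These lie at chr8:13159139-13159158 (plus strand, Lamp1), chr8:3500467-3500486 (plus, Mcoln1), chr7:126583345-126583364 (minus, Cln3), chrX:134601187-134601206 (minus, Gla), chr9:114401023-114401042 (plus, Glb1), chr15:89477428-89477447 (minus, Arsa), chr11:119267816-119267835 (plus, Gaa), chr11:119355527-119355546 (minus, Sgsh) and chr17:12769701-12769720 (minus, Igf2r). Sequences read 5′ to 3′ on the gene's strand. Lamp1 held 4 such sites between bases -61 and -15 relative to its start, and Cln3, Mcoln1, Igf2r and Gla held 2 each.

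Members with this E-box did not move as a block. Of the 9, Gla rose, Igf2r fell and the others did not pass, with a median log2 fold change of -0.07 and a range of -0.30 to 0.46. Among the 18 tested members with a window and no such match, 3 rose and 1 fell, with a median of 0.02 and a range of -0.74 to 0.66. M6pr, which rose, and Asah1, Sort1 and Galns had no window and are in neither set. Of all genes tested, 17.4% were called in either direction. The upstream 250 bases of Gla and Igf2r are shown because both hold a pair of fully palindromic sites and the genes moved in opposite directions, and those of Grn because it had the smallest p and no such match (capitals mark the E-box with its flanking T on either strand):

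Gla, chrX:134601006-134601255, minus strand: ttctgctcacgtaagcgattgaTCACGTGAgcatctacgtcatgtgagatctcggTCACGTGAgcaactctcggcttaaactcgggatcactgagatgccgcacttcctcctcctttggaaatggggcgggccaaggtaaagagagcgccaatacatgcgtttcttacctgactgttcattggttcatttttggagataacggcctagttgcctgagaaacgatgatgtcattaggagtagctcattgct
Igf2r, chr17:12769707-12769956, minus strand: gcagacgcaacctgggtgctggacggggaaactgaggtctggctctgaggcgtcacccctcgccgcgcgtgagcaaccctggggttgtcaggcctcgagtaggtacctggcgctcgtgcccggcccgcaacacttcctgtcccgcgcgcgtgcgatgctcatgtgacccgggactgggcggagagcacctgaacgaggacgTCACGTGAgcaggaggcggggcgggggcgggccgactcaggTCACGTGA
Grn, chr11:102430257-102430506, plus strand: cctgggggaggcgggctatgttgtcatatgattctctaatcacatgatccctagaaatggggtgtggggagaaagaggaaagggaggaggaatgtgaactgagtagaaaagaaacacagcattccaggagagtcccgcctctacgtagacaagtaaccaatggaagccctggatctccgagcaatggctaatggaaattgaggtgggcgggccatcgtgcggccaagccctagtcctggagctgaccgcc

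In Gla the E-boxes begin at -227 and -194 relative to the start, and in Igf2r at -48 and -7. Motifs of interferon signalling were also counted. TTCNNNGAA, the gamma-activated sequence, was in windows of 2 of 28 members (Cln3 and Arsa, 7.14%) and of 9.55% of all genes, and GAAA repeated after any 2 bases, the core of the interferon-stimulated response element, in 1 of 28 (Lamp1, 3.57%) and in 3.99% of all genes. A match is a description of letters and not a binding site, and neither Cln3, Arsa nor Lamp1 passed the test.

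Among the membrane proteins, Lamp2 and Scarb2 rose and Lamp1, Cln3, Ctns and Mcoln1 did not pass. Lamp2, which encodes a major lysosomal membrane glycoprotein and the receptor of chaperone-mediated autophagy, had 404, 407 and 445 CPM in IFN-gamma libraries and 359, 358 and 384 CPM in untreated ones. The groups did not overlap, and the change was 0.23 ± 0.06 (adjusted p = 0.0031). Scarb2 encodes LIMP-2, an abundant protein of the lysosomal membrane. It had 35.3, 26.2 and 27.3 CPM in IFN-gamma libraries and 16.6, 22.5 and 19.2 CPM in untreated ones, the highest fold change among the tested members, at 0.66 ± 0.15 (adjusted p = 0.00079). IFN-gamma replicate 1 was the highest library and untreated replicate 1 the lowest, and the groups did not overlap.

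Lamp1, the other abundant LAMP protein, overlapped between groups, with 572, 596 and 591 CPM in IFN-gamma libraries and 540, 589 and 614 CPM in untreated ones. Its change of 0.06 ± 0.06 had a 95% interval of -0.06 to 0.17 (adjusted p = 0.56), so a change over 1.5-fold lies outside it. Cln3, a membrane protein mutated in a childhood neuronal storage disease, had 0.32 ± 0.13 (adjusted p = 0.10) and passed in the fit without IFN-gamma replicate 2 (adjusted p = 0.0369). The cystine exporter gene Ctns had 0.10 ± 0.17 and Mcoln1, which encodes the lysosomal calcium channel TRPML1, -0.30 ± 0.22 (adjusted p = 0.76 and 0.39). Mcoln1 had 8.10, 6.30 and 10.8 CPM in IFN-gamma libraries and 10.9, 10.0 and 10.8 CPM in untreated ones, so its groups overlapped.

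Of 8 members that degrade sphingolipids and glycolipids or assist in it, 1 rose, 0 fell and 7 did not pass. Gla encodes alpha-galactosidase A, which removes the terminal galactose of globotriaosylceramide and is deficient in Fabry disease. It had 89.5, 85.6 and 93.8 CPM in IFN-gamma libraries and 72.4, 62.3 and 65.9 CPM in untreated ones. All treated libraries lay above all untreated ones, and the change was 0.46 ± 0.09 (adjusted p = 9.4e-05). Psap, the precursor of the saposins that present lipids to these hydrolases, had 830, 843 and 791 CPM in IFN-gamma libraries and 785, 766 and 755 CPM in untreated ones. These groups did not overlap either, but 0.14 ± 0.05 did not pass (adjusted p = 0.074). Psap passed with limma on the deposited log2 values, with the replicate number as a block and without IFN-gamma replicate 3 (adjusted p = 0.0492, 0.0328 and 0.0102).

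The other enzymes of this group gave small changes in either direction. The beta-galactosidase gene Glb1 had -0.01 ± 0.13 and Hexa, the alpha subunit of beta-hexosaminidase A, -0.02 ± 0.09, with 95% intervals of -0.28 to 0.26 and -0.21 to 0.17. Neu1, a sialidase, had 0.26 ± 0.14 and Arsa, which removes sulfate from sulfatide, -0.24 ± 0.13 (adjusted p = 0.24 and 0.22). The genes of acid ceramidase, Asah1, and acid sphingomyelinase, Smpd1, had -0.05 ± 0.09 and -0.12 ± 0.11 (adjusted p = 0.78 and 0.53).

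None of the glycogen and glycoprotein hydrolases passed. Gaa, the acid alpha-glucosidase that degrades glycogen, had -0.07 ± 0.10, and Fuca1, the fucosidase, -0.11 ± 0.11 (adjusted p = 0.72 and 0.56). Man2b1, the alpha-mannosidase, had 27, 27.2 and 28.8 CPM in IFN-gamma libraries and 35.0, 35.6 and 33.8 CPM in untreated ones. Its groups stood apart with little spread within either, yet -0.29 ± 0.12 missed the threshold (adjusted p = 0.098) and passed with upper-quartile factors only (adjusted p = 0.0422). The beta-mannosidase gene Manba had 4, 3 and 3 counts in IFN-gamma libraries and 10, 6 and 8 counts in untreated ones. The ratio of its summed counts, scaled by library totals, was 0.378, with an exact 95% interval of 0.161 to 0.819 that covers counting error only. With no filter on low counts it did not pass (adjusted p = 0.44).

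Of 6 hydrolases of glycosaminoglycans, Ids fell and 5 did not pass. Ids encodes iduronate 2-sulfatase, which opens the breakdown of heparan and dermatan sulfate and is deficient in Hunter syndrome. It had 28.6, 33.2 and 36.4 CPM in IFN-gamma libraries and 45.9, 39.3 and 44.6 CPM in untreated ones, with no overlap. The change of -0.36 ± 0.12 passed (adjusted p = 0.024), but the call was lost without IFN-gamma replicate 1, untreated replicate 1 or untreated replicate 3 (adjusted p = 0.189, 0.127 and 0.0693). Idua, whose enzyme acts next on the same chains, had -0.01 ± 0.18, and Gusb, the beta-glucuronidase gene often used as a reference gene, 0.05 ± 0.15 (adjusted p = 0.98 and 0.88).

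The sulfatase genes Arsb and Galns and the sulfamidase gene Sgsh had -0.09 ± 0.15, -0.45 ± 0.32 and -0.08 ± 0.28 (adjusted p = 0.74, 0.38 and 0.90). Galns and Sgsh had the fewest counts of the tested members, with 232 and 302 over the 6 libraries. At that depth a change of Galns would have needed a log2 value of 0.89 to pass, and one of Sgsh 0.77, so smaller changes of these genes were not detectable.

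Grn had the smallest adjusted p of the members. It encodes progranulin, a secreted and lysosomal glycoprotein that is cut into granulins in the lysosome and whose loss causes a neuronal storage disease. Grn had 421, 417 and 442 CPM in IFN-gamma libraries and 317, 326 and 328 CPM in untreated ones. The gap between the groups was wider than the range within either, and the change was 0.44 ± 0.06 (adjusted p = 7.9e-08). It was called in all 15 alternative fits, with log2 values from 0.39 to 0.46.

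The other 3 genes of this group did not pass. The acid lipase gene Lipa, which hydrolyses cholesteryl esters and triglycerides, had 0.13 ± 0.13, and the palmitoyl-protein thioesterase gene Ppt1 0.05 ± 0.07 (adjusted p = 0.59 and 0.73). Tpp1, a tripeptidyl peptidase, had 152, 154 and 144 CPM in IFN-gamma libraries and 162, 169 and 169 CPM in untreated ones. Its groups did not overlap, and -0.10 ± 0.07 did not pass (adjusted p = 0.33).

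The receptors that deliver hydrolases did not move together. M6pr, the cation-dependent mannose 6-phosphate receptor, had 56.4, 49.5 and 48.5 CPM in IFN-gamma libraries and 46.1, 38.9 and 37.5 CPM in untreated ones. The lowest treated library lay just above the highest untreated one, and M6pr rose by 0.38 ± 0.11 (adjusted p = 0.011). This call was lost without IFN-gamma replicate 1, untreated replicate 2 or untreated replicate 3 (adjusted p = 0.0939, 0.0551 and 0.0938). The mouse genome also holds a pseudogene of it, M6pr-ps, with which reads may be shared. Igf2r, the cation-independent receptor, which also binds and clears insulin-like growth factor II, had 130, 125 and 148 CPM in IFN-gamma libraries and 155, 175 and 175 CPM in untreated ones. It fell by 0.28 ± 0.07 (adjusted p = 0.004) and was called in all 15 alternative fits.

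Sort1 encodes sortilin, a receptor that brings prosaposin and progranulin to the lysosome. It had 5.80, 4.45 and 8.81 CPM in IFN-gamma libraries and 9.73, 10.7 and 9.95 CPM in untreated ones. IFN-gamma replicate 3 lay closest to the untreated libraries, and -0.64 ± 0.24 did not pass (adjusted p = 0.059). Without that replicate the change was -0.92 and passed (adjusted p = 0.00993), as it did with upper-quartile factors, unadjusted totals and limma on the deposited values (adjusted p = 0.0369, 0.0393 and 0.0469).

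Tfeb, the transcription factor of lysosomal genes, had 3.68, 3.37 and 5.52 CPM in IFN-gamma libraries and 6.10, 7.81 and 7.68 CPM in untreated ones. All treated libraries lay below all untreated ones. The change of -0.74 ± 0.28 had a 95% interval of -1.30 to -0.18 and did not pass (adjusted p = 0.061). It passed with upper-quartile factors, with unadjusted totals and without IFN-gamma replicate 3 (adjusted p = 0.0402, 0.0435 and 0.0271). With 303 counts over 6 libraries, a log2 change of 0.77 would have been needed to pass.

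**Figure D2:**
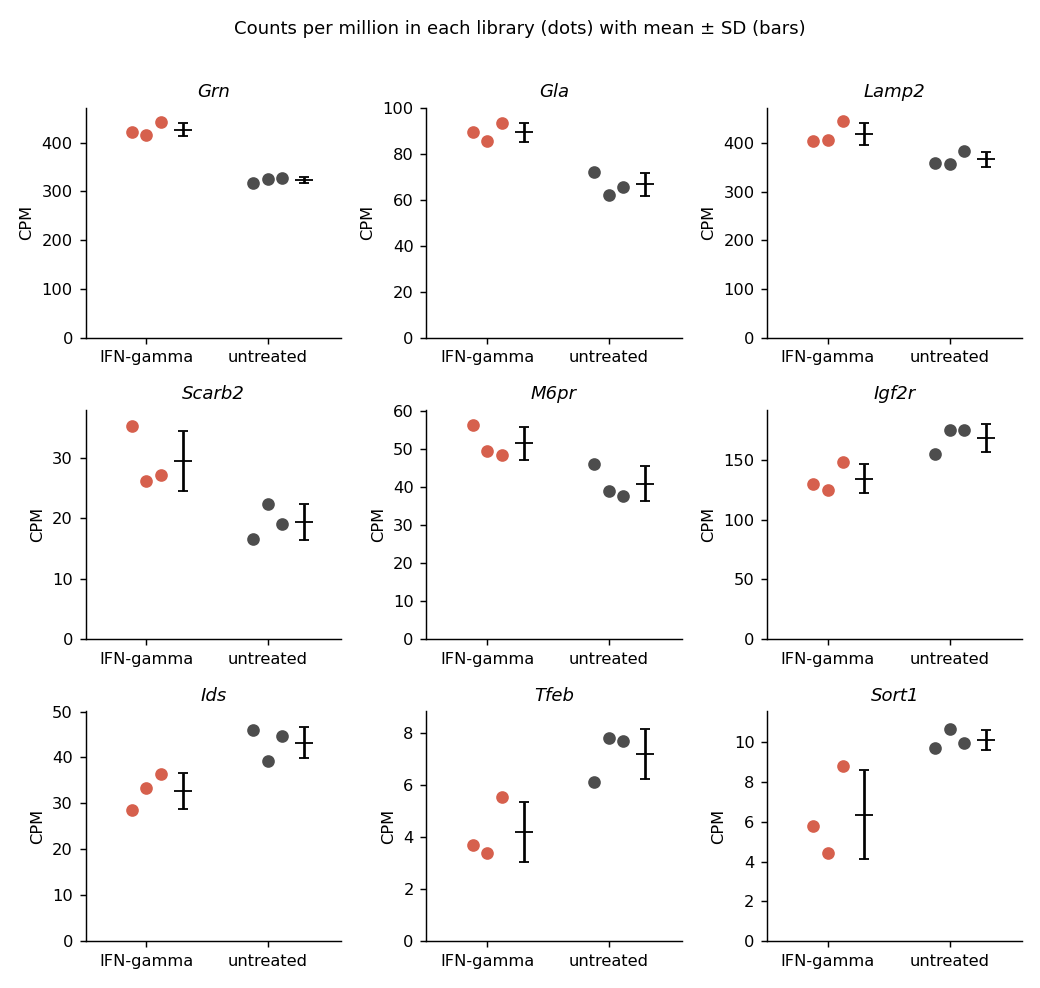
CPM in each library (dots) with mean ± SD (bars, n = 3) for the 7 members called and for Tfeb and Sort1, with the axis of each panel starting at 0. The dots of the groups do not overlap in any of the 9 panels, and the highest IFN-gamma library of Sort1 (8.81 CPM) lies near the lowest untreated one (9.73 CPM). Of all tested genes, 31.8% had groups that did not overlap.

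Ratios of gene pairs within a library do not depend on how libraries are scaled. Such ratios were taken for 4 pairs of members that share a role or bind each other, chosen after their values were seen. M6pr over Igf2r was 0.434, 0.397 and 0.328 in IFN-gamma libraries and 0.298, 0.223 and 0.214 in untreated ones, a log2 difference of 0.66. Lamp2 over Lamp1 was 0.706, 0.683 and 0.754 in IFN-gamma libraries and 0.665, 0.607 and 0.626 in untreated ones, a log2 difference of 0.17. Both ratios were higher in every treated library than in any untreated one.

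The ratio of Grn to its receptor gene Sort1 was 72.6, 93.5 and 50.2 in IFN-gamma libraries and 32.5, 30.5 and 33.0 in untreated ones, a log2 difference of 1.13 with most of the spread in the treated group. Grn over Psap, whose products bind each other, was 0.507, 0.494 and 0.559 in IFN-gamma libraries and 0.403, 0.425 and 0.435 in untreated ones, a log2 difference of 0.30. For each of the 4 pairs a two-sided exact permutation test gave p = 0.1 (0.1 after Benjamini-Hochberg adjustment over the 4), the smallest p that 3 against 3 libraries allow. The design can therefore not reach the threshold for a single ratio. As the pairs were chosen with their values known, neither this p nor the lack of overlap tests them.

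**Figure D3:**
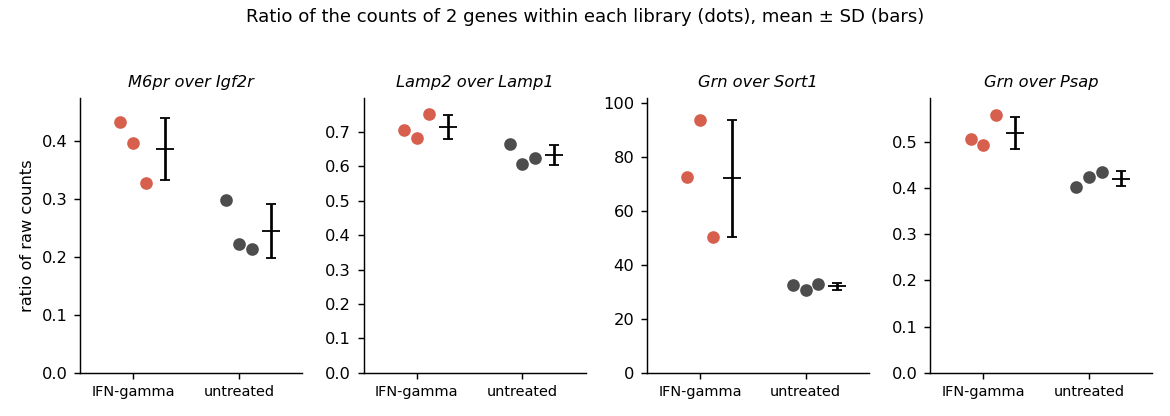
Ratio of the raw counts of 2 members within each library (dots) with mean ± SD (bars, n = 3), IFN-gamma to the left of untreated, with each axis starting at 0. In all 4 pairs, which were chosen after their values were seen, the IFN-gamma libraries lie above the untreated ones. Grn over Sort1 spreads from 50.2 to 93.5 in the treated group.

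The 24 members that did not pass were measured with unequal precision. For 19 of them the 95% interval of the log2 fold change lay within 1.5-fold in either direction, and for 21 within 2-fold. Standard errors over the 31 tested members ran from 0.05 for Psap to 0.32 for Galns, and the smallest log2 change that would have passed had a median of 0.33. Of the 24, 8 had a positive and 16 a negative log2 fold change, and 5 had an unadjusted p under 0.05. The same counts were not taken over all genes, so no lean of the members is read from them.

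Exons of 11 members overlap those of another gene in GENCODE M21, and the labels do not say whether strand was used in counting. Most overlapping genes in the table had far fewer counts, for instance 1511 for Fam171a2 against 20544 for Grn and 853 for Grtp1 against 31754 for Lamp1. The exceptions were Ppt1 with 6923 counts against 5963 for Cap1, Idua with 687 against 1052 for Dgkq, and Glb1 with 1567 against 942 for Tmppe, so reads of these pairs may have been divided. Cap1 and Dgkq lie on the opposite strand to the member. Tmppe lies on the same strand as Glb1, so strand-aware counting would not separate their shared reads.

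Other lysosomal genes, taken as 6 lists of 154 genes, were mostly not called either. Of 140 tested, 12 rose and 7 fell, or 13.6% against 17.4% of all genes, with a median log2 fold change of 0.01. Of 30 other hydrolases and cofactors, 3 rose and 2 fell. Npc2, which hands cholesterol out of the lysosome, averaged 1358 ± 71.3 CPM in IFN-gamma and 900.1 ± 35.1 CPM in untreated libraries, a rise of 0.64 ± 0.05 (adjusted p = 5.3e-13). The lysosomal ribonuclease genes Rnaset2a and Rnaset2b rose by 0.51 ± 0.10 and 0.45 ± 0.08, though they are near-identical copies between which reads may be divided. Gm2a, the activator that lifts gangliosides for the hexosaminidase encoded in part by Hexa, fell by 0.48 ± 0.14, and Hgsnat, an acetyltransferase of heparan sulfate breakdown, by 0.45 ± 0.15 (adjusted p = 0.01 and 0.027). Gm2a did not pass without untreated replicate 1 (adjusted p = 0.0521), and Hgsnat did not with DESeq2 and without IFN-gamma replicate 1, untreated replicate 1 or untreated replicate 3 (adjusted p from 0.053 to 0.258).

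Of 28 other lysosomal membrane proteins, 3 rose and 1 fell, or 14.3% against 17.4% of all genes. Laptm4a rose by 0.51 ± 0.06 and its relative Laptm4b by 0.29 ± 0.07 (adjusted p = 1.4e-09 and 0.0042). Cd68, a LAMP-family protein best known as a macrophage marker, had 10.5 ± 2.16 CPM in IFN-gamma and 6.47 ± 1.35 CPM in untreated libraries and rose by 0.73 ± 0.23 (adjusted p = 0.023), a call lost with thinned counts and without IFN-gamma replicate 2, untreated replicate 1 or untreated replicate 2 (adjusted p from 0.0615 to 0.164). The summed level of the 14 macrophage markers, Cd68 among them, was 73.2 to 82.0 CPM in IFN-gamma and 40.9 to 49.6 CPM in untreated libraries. Most of that difference was Mpeg1, with 303, 250 and 209 counts (26.5 ± 1.76 CPM) in IFN-gamma and 2, 0 and 0 counts in untreated libraries, while Cd14 had 38.8 ± 6.77 and 38.5 ± 4.35 CPM. Ptprc, Csf1r, Adgre1, Itgam, Lyz2 and the other 6 of the 11 low markers did not exceed 0.959 CPM in any library. The cation channel gene Tpcn2 fell by 0.64 ± 0.22 (adjusted p = 0.034). It did not pass with DESeq2, with thinned counts and without IFN-gamma replicate 1 or 2 or untreated replicate 2 or 3 (adjusted p from 0.0544 to 0.191).

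Of 19 tested genes of the proton pump that acidifies the lysosome, 1 rose and 1 fell, or 10.5% against 17.4% of all genes. The gene that rose and the gene that fell encode isoforms of the same subunit. Tcirg1, the a3 isoform, averaged 68.1 ± 2.80 CPM in IFN-gamma and 34.9 ± 2.59 CPM in untreated libraries, a rise of 1.01 ± 0.10 (adjusted p = 1.4e-10). Atp6v0a1, the a1 isoform, averaged 21.8 ± 3.01 and 31.9 ± 3.55 CPM and fell by 0.51 ± 0.14 (adjusted p = 0.0063), a call lost without IFN-gamma replicate 1 or untreated replicate 2 (adjusted p = 0.0587 and 0.0644).

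Of 20 genes of TFEB relatives, the Ragulator complex and mTORC1, which holds TFEB in the cytoplasm, 2 rose and 1 fell. The share called was 15%, against 17.4% of all genes. Mlst8, an mTORC1 subunit, rose by 0.55 ± 0.15 and the lysosomal GTPase gene Rraga by 0.25 ± 0.07, while Tsc2, which restrains mTORC1, fell by 0.32 ± 0.09 (adjusted p = 0.0066, 0.016 and 0.011). The groups overlapped for Rraga, with 267 CPM in IFN-gamma replicate 3 and 282 CPM in untreated replicate 2. The Rraga call was lost with upper-quartile factors and without IFN-gamma replicate 1, untreated replicate 1 or untreated replicate 3 (adjusted p from 0.0668 to 0.161). The Tsc2 call was lost without IFN-gamma replicate 2 or untreated replicate 1 (adjusted p = 0.06 and 0.0784). The TFEB relatives Tfe3 and Mitf had -0.06 ± 0.10 and -0.12 ± 0.15 and did not pass.

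Among 30 genes that tag and sort hydrolases, 1 rose and 0 fell, or 3.33% against 17.4% of all genes. Ap3m1, a subunit of the adaptor that sends membrane proteins to lysosomes, rose by 0.39 ± 0.13 (adjusted p = 0.028), which was lost under upper-quartile or total-count scaling and without IFN-gamma replicate 3 or untreated replicate 1 or 2 (adjusted p from 0.0574 to 0.114). Arl8a, a GTPase that moves lysosomes along microtubules, averaged 47.8 ± 3.81 CPM in IFN-gamma and 40.1 ± 6.30 CPM in untreated libraries, and 0.29 ± 0.11 did not pass (adjusted p = 0.066). It passed with thinned counts, with the replicate number as a block and without IFN-gamma replicate 2 or untreated replicate 3 (adjusted p from 0.0224 to 0.0443). Gnptab, the enzyme that makes the mannose 6-phosphate tag, had 0.16 ± 0.15 (adjusted p = 0.54). Of 13 cathepsin and related genes, 2 rose and 2 fell, or 30.8% against 17.4% of all genes. With 13 genes this share says little about the list as a whole. Ctsd fell by 0.30 ± 0.06, and Ctsa, whose product protects Neu1, fell by 0.33 ± 0.08 (adjusted p = 0.00039 and 0.0016). Ctss rose, with 12, 18 and 14 counts in IFN-gamma and 1, 0 and 2 in untreated libraries. The ratio of these counts was 13.3, with an exact 95% counting interval of 4.26 to 66.9. The edgeR test gave Ctss a change of 3.65 ± 0.86 (adjusted p = 0.0017). Ctss held only 47 counts in all, and its passing of the low-count filter rested on the treated libraries. It was called in the 13 alternative fits in which it was tested, and it was not tested in the others. Ctsc rose by 0.28 ± 0.08 (adjusted p = 0.016), which was lost with upper-quartile factors and without IFN-gamma replicate 1 or untreated replicate 1 or 2 (adjusted p from 0.0533 to 0.178).

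**Figure D4:**
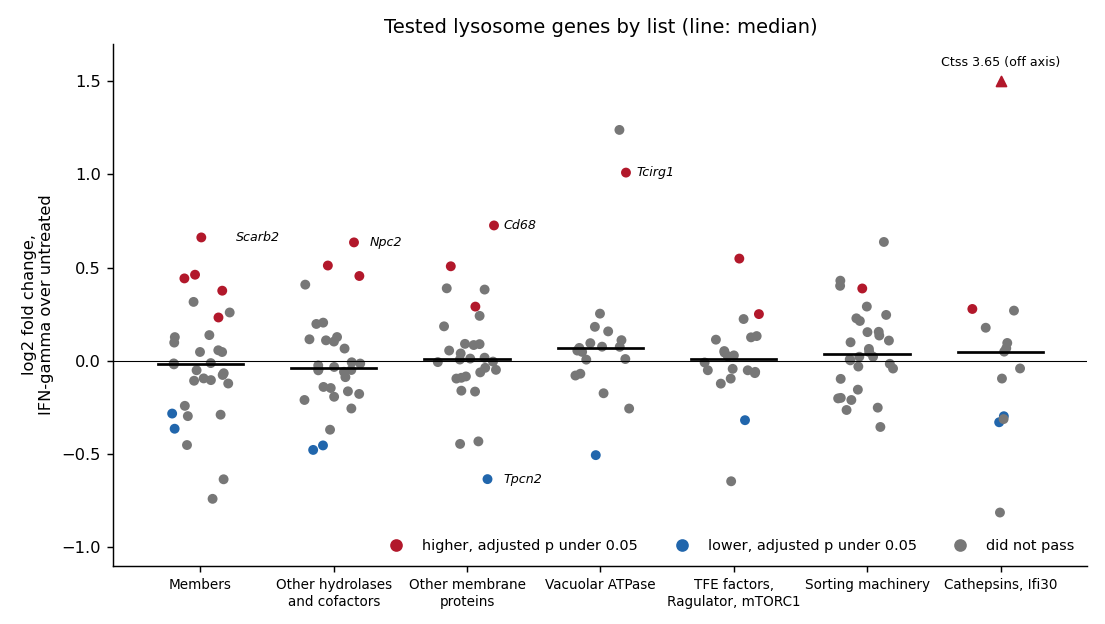
Log2 fold change (IFN-gamma over untreated) of each tested gene (points) for the members and the 6 lists of other lysosomal genes, with red and blue for genes called higher and lower, grey for those that did not pass and a line at each median. Medians lie between -0.04 and 0.07, and Ctss, drawn as a triangle at the edge, lies off the axis at 3.65.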

How the data were processed

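RNA-seq gene expression was measured in 6 libraries of TC-1 cells, grouped by the treatment label. The raw counts per gene were deposited by the authors with no normalization. The log2 normalized values deposited by the authors lay at most 0.00493 from values rebuilt here, namely pseudo-counts from edgeR after TMM scaling, plus 1, in log2. Per the submitters' processing notes the tools were Bowtie2 and edgeR and the build hg19, a human one; the counting program is not given in the sources used here, and the labels name 2 library kits without saying which one gave the counts. CPM is not scaled by gene length, so it does not rank genes by level. Coordinates come from RefSeq alone.

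The test was edgeR's quasi-likelihood F test (version 4.0.16, R 4.3.3), with a robust fit, TMM scaling, the filterByExpr filter and no covariate, over all 12191 genes that passed the filter, with Benjamini-Hochberg adjustment. Standard errors are the log2 change divided by the square root of F. CPM values divide by total gene counts, so their ratios differ slightly from the TMM-based fold changes. DESeq2 1.42.0 and limma 3.58.1 were alternatives, as were other scaling factors, leaving out the Rn45s row, no filter, thinned counts, a replicate block and leaving out each library, 15 in all. The main fit, DESeq2 and limma (on log2 CPM plus 1) were also run on simulated counts, and the other alternatives were not. The smallest callable change is the standard error multiplied by the t value at the call threshold. Libraries of a group differed by more than sampling noise (chi-square per degree of freedom from 4.56 to 11.6). The rows compared include Rn45s. The highest value was for untreated replicates 1 and 3, in which Rn45s took 9.69% and 5.81% of counts. How much of the chi-square this row carries was not tested.

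Members and lists were chosen with earlier results of these data known. All members are named; from each list of other lysosomal genes the 2 smallest adjusted p and the strongest change against the list's majority were named, and further called genes and genes that partner a member (Gnptab, Tfe3, Mitf) were added after their values were seen.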

Additional observations from a re-analysis of the deposited data

How the results depend on the processing

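Of the counts over members, 5 higher kept within 1.5-fold under all 15 alternatives (4 to 6 without 1 library), while 2 lower became 5 with upper-quartile factors, 4 with total counts alone and between 1 and 4 without 1 library. The median log2 fold change of the members, -0.02, was -0.0705 with upper-quartile factors, -0.0617 with total counts alone, -0.0543 with thinned counts and between -0.0542 and 0.0362 without 1 library. The log2 ratio of summed member CPM, 0.07, was 0.11 on TMM-scaled CPM. Genes of the other lists numbered 12 higher and 7 lower, against 9 and 10 with upper-quartile factors and 11 and 9 with total counts alone. Without 1 library, between 10 and 14 of them were higher and between 5 and 9 lower. All genes called moved too, with between 987 and 1298 higher and between 654 and 1014 lower without 1 library. The main fit called 1204 and 922. The causes of these shifts were not tested. Grn, Gla, Lamp2, Scarb2 and Igf2r were called in all 15 alternatives. Same-numbered libraries had correlations of deviations of 0.02, 0.06 and -0.00, so they shared little shift. These values cannot show whether same-numbered libraries were prepared together. With the replicate number as a block 6 members were higher and 2 lower, with Psap the added one. Depth limits the weakly expressed members Galns, Sgsh, Tfeb and Manba most.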
